A study of Mus musculus with 4 samples.

Results

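The granule mediator genes described here are 6 mast cell genes: the tryptase genes Tpsb2, Tpsab1 and Tpsg1, the carboxypeptidase gene Cpa3, the histidine decarboxylase gene Hdc and the heparin sulfation gene Ndst2. They were chosen by name from 27670 genes on the array. The array carries 5 of them under these names, and the 1 other, Tpsb2, under its older name Mcpt6, recognised through its RefSeq accession. Each gene had 1 probe, spotted 1 time per array, and all 6 probes were well above background in both channels on all 4 arrays, unsaturated, and passed the filter on dim probes.

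The stimulated group was mucosal mast cells (MMC) of the mouse, differentiated in culture and exposed to interleukin 18 (IL-18), an inflammatory cytokine related to IL-1, and its RNA carried the dye Cy5. The other group was unstimulated MMC, whose RNA carried Cy3. Each of 4 arrays held the RNA of 1 biological replicate, both states together, so the Cy5 over Cy3 ratio of an array is the difference within 1 pair. The sources used here do not give the strain, age and sex of the animals, nor the dose and duration of IL-18. No array had the dyes exchanged, so a dye effect of a single probe and the effect of IL-18 cannot be told apart.

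Mast cells pack their secretory granules with proteases, histamine and proteoglycan, and release them together when activated. Tryptases are trypsin-like serine proteases that are stored as complexes with heparin, and carboxypeptidase A3 trims peptides at their carboxyl ends in the same granules. Histidine decarboxylase makes histamine from histidine, and Ndst2 removes acetyl groups from heparin chains and adds sulfate to them. In mice that lack Ndst2, mast cells of connective tissue make no fully sulfated heparin and store less of the proteases that bind it. Tpsb2, Cpa3 and Ndst2 are known best from connective tissue mast cells, whereas mucosal mast cells are known for the chymases Mcpt1 and Mcpt2.

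The windows of 150 bases before the RefSeq start (build GRCm38.p6) are shown for 3 members, 1 that rose, 1 that fell and 1 that did not pass the test, so that the reader can set their sequence beside their ratios. All run 5′ to 3′ on the gene's strand, and capitals mark matches to GATAA (the core bound by GATA factors), CANNTG (the E-box, bound by factors such as MITF) or TATAAA (the TATA box). The Cpa3 window is chr3:20242182-20242331, that of Ndst2 chr14:20734563-20734712 and that of Hdc chr2:126618679-126618828, all on the minus strand. All 3 windows precede starts that lie inside the longest annotated extent of their gene, that of Hdc the farthest inside.
Cpa3: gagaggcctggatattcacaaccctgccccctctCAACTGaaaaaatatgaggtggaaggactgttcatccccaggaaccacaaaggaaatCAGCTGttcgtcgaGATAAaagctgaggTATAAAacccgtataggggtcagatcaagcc
Ndst2: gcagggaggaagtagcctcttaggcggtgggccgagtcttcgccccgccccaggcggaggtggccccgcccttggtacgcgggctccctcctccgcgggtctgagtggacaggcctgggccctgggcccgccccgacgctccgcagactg
Hdc: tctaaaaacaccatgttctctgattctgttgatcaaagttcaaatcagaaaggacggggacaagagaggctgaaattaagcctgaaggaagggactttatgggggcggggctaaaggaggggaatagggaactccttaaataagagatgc

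In the Cpa3 window GATAA begins 45 bases and TATAAA 31 bases before the start, and the pair of CANNTG matches begins 116 and 59 bases before it. Neither the Ndst2 nor the Hdc window held any of these letters. Each motif was searched on both strands, and no 2 matches overlapped in these windows. GATAA was found in 13.3%, CANNTG in 47.7% and TATAAA in 7.57% of the 32851 windows of this length in the table. The NF-kB consensus, searched in the same way, was in 4.6% of all windows and in none (0) of the members' windows. RefSeq windows were found for 4 of the 6 genes, the fourth being Tpsg1, with GATAA in 1 of its windows and CANNTG in the other. These matches describe the letters and were not set against any binding data.

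After loess normalization, IL-18 stimulated cells had lower Tpsb2 and Ndst2 signals, and a higher Cpa3 signal, than unstimulated cells. Probes as bright as Cpa3 were about as high. Tpsb2 fell by 0.74 on the log2 scale (SD 0.07, n = 4), a level 1.67-fold lower, and Ndst2 fell by 0.37 (SD 0.08), 1.30-fold lower. Cpa3 rose by 0.47 ± 0.22, or 1.38-fold. Tpsab1 (0.11 ± 0.19), Tpsg1 (0.10 ± 0.06) and Hdc (-0.09 ± 0.39) did not pass the threshold (SD, n = 4 each). These tests are limma's moderated test of the ratio against 0, adjusted by Benjamini-Hochberg across the 24118 probes tested, at a threshold of 0.05.

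Thus 2 of the 6 probes were lower and 1 was higher. Over all tested probes 16% were called lower (3869), 18.1% higher (4357) and 34.1% in either direction, so that a count of 3 among 6 sets nothing apart about these genes. In RNA from a cell population, less RNA per cell and fewer cells that carry it cannot be told apart.

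These values rest on how the trend with brightness was removed. Before normalization the Cy5 signal of all 6 members was the larger on every array. The median uncorrected log2 ratio went up with brightness, being 0.18 in probes with a mean log2 intensity between 7 and 8, 1.07 between 12 and 13, and 2.12 between 16 and 17. The members have mean log2 intensities between 11.54 (Hdc) and 16.79 (Cpa3), and loess, which fits and subtracts this trend, took between 0.98 and 1.68 off their log2 ratios. With the median of each array set to 0 in place of loess, which leaves the trend in, the median of all tested probes was 0.43 instead of 0.02. Tpsb2 then read 0.47 (adjusted p = 0.086) and Ndst2 0.71 (adjusted p = 0.0315, higher), so both falls are relative to probes of like brightness and reverse on that scale. Of all calls 98.7% were then higher, against 53.0% with loess.

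**Figure D1:**
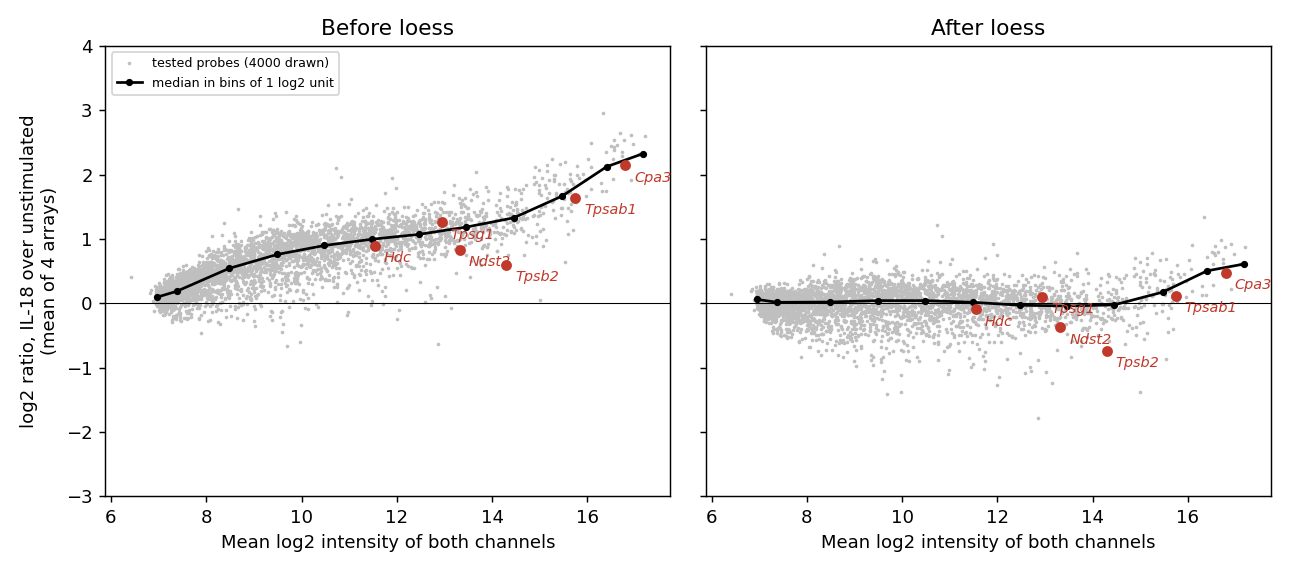
Mean log2 ratio of IL-18 over unstimulated cells over 4 arrays (vertical axis) against mean log2 intensity (horizontal axis), before loess (left) and after it (right), for a random draw of the tested probes (grey), the median in bins of 1 log2 unit (black) and the 6 members (red). Before loess all 6 members lie above 0 and the median curve climbs with brightness, while after it Tpsb2 (-0.74) and Ndst2 (-0.37) lie below the curve and Cpa3 (0.47) lies near it.

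Tryptases are the most abundant serine proteases of many mast cells. Tpsb2 encodes mouse mast cell protease 6, a tryptase that forms heparin-bound tetramers. Its spot signal, minus local background, was 21996, 18433, 29531 and 30279 scanner units in the IL-18 channel of replicates 1 to 4, against 14045, 13276, 19149 and 19431 in the unstimulated channel. The signal in Cy5 was thus 1.39 to 1.57 times that in Cy3, the lowest such ratios among the 6 members except where replicate 4 of Hdc stood at 1.48. After loess the log2 ratios of Tpsb2 were -0.73, -0.67, -0.71 and -0.84, all below 0 and close together.

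Tpsb2 had the smallest adjusted p of the members (6.69e-04 in limma, 95% interval -0.85 to -0.63). With the log ratio that the scanner software itself computed, Tpsb2 read -0.74 as well (adjusted p = 0.00198). Leaving out 1 array at a time gave -0.76 to -0.70, with adjusted p-values from 7.83e-04 to 0.0151. Among the 696 other tested probes within 0.5 of its mean log2 intensity, whose median ratio was -0.04, 2.16% had a lower ratio than Tpsb2. Of all tested probes, 1.31% were at least as low.

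Tpsab1 encodes the other classical tryptase, mouse mast cell protease 7. RefSeq classes it as a transcribed pseudogene in the C57BL/6J assembly, where a splice site change is known to prevent a working protein, whereas other mouse strains make one. Its signal was high in both states, at 97574, 84014, 104622 and 102520 units in IL-18 stimulated cells, against 28547, 30227, 29988 and 35433 units in unstimulated cells. After loess the log2 ratios were 0.09, 0.15, 0.34 and -0.12, with replicate 4 alone below 0. The mean of 0.11 had a 95% interval of -0.07 to 0.29 (limma, adjusted p = 0.275) and read -0.07 with the software's log ratio (adjusted p = 0.547), so no direction can be given. With median centring it read 1.52 (adjusted p = 0.00777). Among 294 other tested probes of like brightness (median 0.21 after loess), 37.4% read lower.

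Tpsg1 encodes transmembrane tryptase, which stays anchored in the membrane when granules fuse with it. Its net signal was 13352, 8312, 14334 and 13190 units with IL-18, against 5569, 3992, 5698 and 4902 without. The log2 ratios after loess were 0.04, 0.07, 0.14 and 0.16, above 0 on 4 of 4 arrays, but the mean of 0.10 did not pass (limma, adjusted p = 0.117, 95% interval -0.0042 to 0.20). The software's log ratio gave 0.11 and median centring 1.13 (adjusted p = 0.00833).

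The 3 tryptase genes are neighbours on the chromosome, in the order Tpsab1, Tpsb2, Tpsg1 in RefSeq, and their ratios differed. On each array Tpsb2 read lower than Tpsab1, by 0.72 to 1.05 (mean difference -0.85 ± 0.14, n = 4), and lower than Tpsg1, by 0.73 to 1.00 (mean -0.84 ± 0.12). The same order held on 4 of 4 arrays with the software's log ratio (mean differences -0.68 and -0.86) and with median centring (-1.05 and -0.66). An exact sign-flip test, two-sided, gave p = 0.125 for both, the smallest that 4 arrays allow (0.188 after adjustment over the 15 pairs of members), so it cannot pass the threshold. Tpsab1 and Tpsg1 differed by 0.01 ± 0.21, with 3 of 4 arrays above 0, and by -0.18 with the software's log ratio. Probes as bright as Tpsab1 had a median of 0.21 after loess, against -0.04 for those as bright as Tpsb2 or Tpsg1. This offset is within the differences of Tpsab1 from each of them, and median centring leaves the whole trend with brightness in. Tpsb2 and Tpsab1 are closely similar in sequence, the probe sequences were not used here, and how far each probe also binds the RNA of the other gene was not tested.

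**Figure D2:**
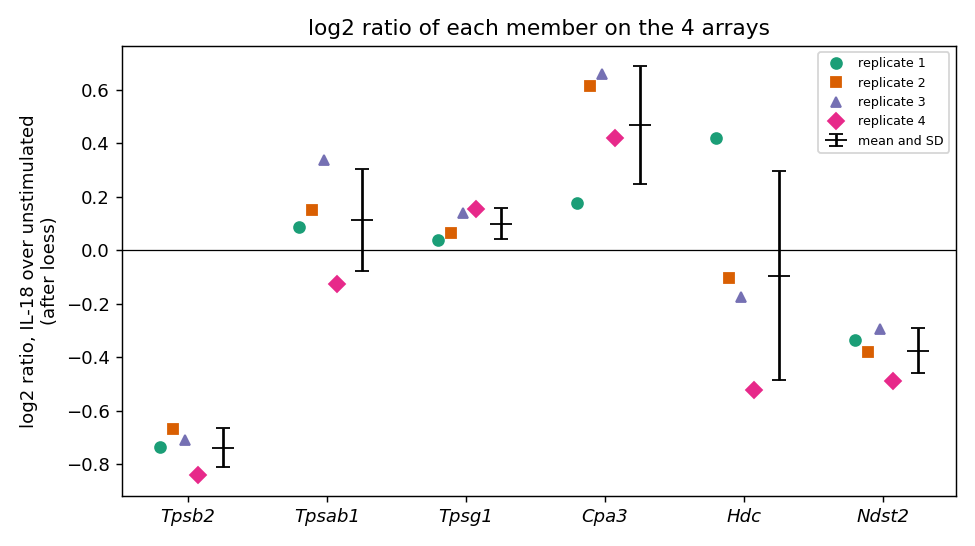
log2 ratio of IL-18 over unstimulated cells after loess (vertical axis) for each member gene (horizontal axis) on the 4 arrays (coloured symbols), with mean and SD (black). Tpsb2 (-0.84 to -0.67) and Ndst2 (-0.49 to -0.29) lie below 0 and Cpa3 (0.18 to 0.66) above it on every array, while Hdc spreads from -0.52 to 0.42.

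Cpa3 encodes carboxypeptidase A3, which is stored in the granule with the chymases and also degrades toxins and peptides such as endothelin. It was the brightest member, with net signals of 239916, 238254, 230488 and 246743 units in the IL-18 channel, against 56891, 56498, 49257 and 53461 units in the unstimulated channel. The Cy5 signal was 4.22 to 4.68 times the Cy3 signal, the highest such ratios among the members. After loess the log2 ratios were 0.18, 0.61, 0.66 and 0.42, all above 0, with replicate 1 the lowest (limma, adjusted p = 0.00907, 95% interval 0.27 to 0.67).

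This rise was of the size of its brightness class. The 96 other tested probes within 0.5 of its intensity had a median log2 ratio of 0.55 (quartiles 0.29 and 0.78), 85.4% of them were called higher, and 42.7% read lower than Cpa3. With the scanner software's log ratio Cpa3 read 0.13 and did not pass (adjusted p = 0.13). Without replicate 2 it read 0.42 and did not pass either (adjusted p = 0.0612).

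**Figure D3:**
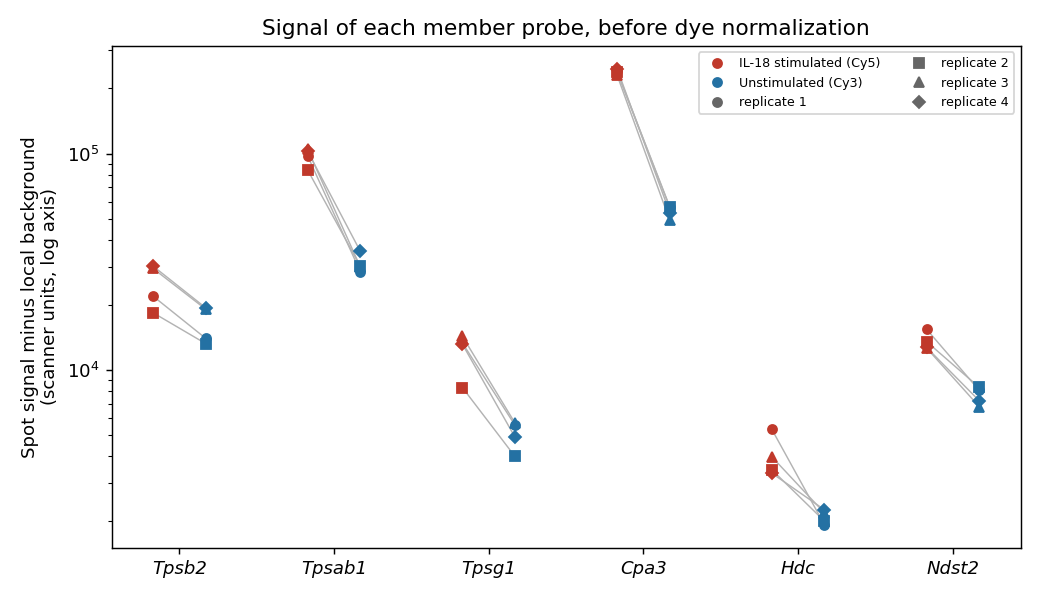
Spot signal minus local background, in scanner units on a log axis, of each member probe in IL-18 stimulated cells (red, left) and unstimulated cells (blue, right), before dye normalization, with a line joining the 2 channels of an array and a symbol for each replicate. The red point is the higher on every array for all 6 genes, with the widest gap for Cpa3 (4.22 to 4.68 times) and a narrow one for Tpsb2 (1.39 to 1.57 times).

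Hdc encodes histidine decarboxylase, the only enzyme that makes histamine in mammals. Its net signal was 5328, 3466, 3978 and 3343 units in IL-18 stimulated cells, against 1929, 2007, 2189 and 2265 units in unstimulated cells. After loess replicate 1 read 0.42, whereas replicates 2, 3 and 4 read -0.10, -0.17 and -0.52. The mean of -0.09 had the widest spread of the members and a 95% interval of -0.42 to 0.23 (limma, adjusted p = 0.609). This interval holds a fall of up to 0.42 and a rise of up to 0.23, so no direction can be given. The arrays of slide 1 (replicates 1 and 2) averaged 0.16 and those of slide 2 (replicates 3 and 4) -0.35. Without replicate 1 the value was -0.27 (adjusted p = 0.0532), and without replicate 4 it was 0.05.

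Ndst2 encodes the N-deacetylase and N-sulfotransferase on which heparin of connective tissue mast cells depends. Its net signal was 15450, 13546, 12658 and 12727 units with IL-18, against 8074, 8329, 6785 and 7225 units without. The log2 ratios after loess, -0.34, -0.38, -0.29 and -0.49, were below 0 on 4 of 4 arrays and spread little (limma, adjusted p = 0.00351, 95% interval -0.49 to -0.26). The software's log ratio gave -0.33 (adjusted p = 0.00774), and leaving out 1 array at a time gave -0.40 to -0.34, with adjusted p-values from 0.00448 to 0.0361. Among 1040 other tested probes of like brightness (median -0.04), 8.46% read lower.

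Ranked after loess, Tpsb2 had the lowest ratio on 4 of 4 arrays, and Ndst2 was the next lowest on replicates 1, 2 and 3. Hdc was the highest of the 6 on replicate 1 and the next lowest after Tpsb2 on replicate 4, and Cpa3 was the highest on replicates 2, 3 and 4. With median centring Tpsb2 was above Hdc on replicate 4 (0.28 against 0.21). Cpa3 read higher than Ndst2 on 4 of 4 arrays, by 0.84 ± 0.22, and the difference of Tpsb2 minus Cpa3 was -1.21 ± 0.20. With the software's log ratio these differences were 0.46 and -0.87. Probes as bright as Cpa3 had a median of 0.55 after loess, against -0.04 for those as bright as Tpsb2 or Ndst2, and this offset is within both differences. Tpsb2 minus Ndst2 was -0.36 ± 0.06, below 0 on 4 of 4 arrays. Hdc and Ndst2 (0.28 ± 0.34), and Tpsg1 and Hdc (0.19 ± 0.44), did not differ beyond their spread.

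**Figure D4:**
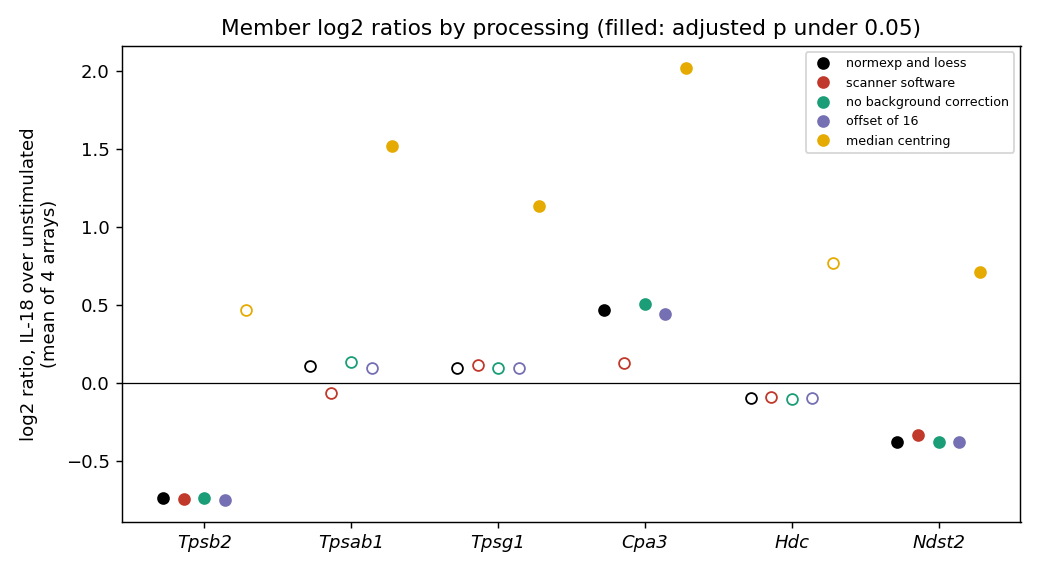
Mean log2 ratio of IL-18 over unstimulated cells (vertical axis) of each member under 5 processings (colours), filled where the adjusted p was under 0.05. Tpsb2 lies between -0.75 and -0.74 and Ndst2 between -0.38 and -0.33 under all but median centring, which puts them at 0.47 and 0.71, and Cpa3 ranges from 0.13 with the scanner software to 2.02 with median centring.

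By the smallest Euclidean distance between the 4 log2 ratios, among tested probes of 1 log2 unit above or below in brightness, the 3 genes nearest to each member were taken. Those of Tpsb2 included Eif5a and Slc6a6 (distances 0.13 and 0.17, out of 1182 candidates), and Ndst2 lay nearest to Map11, Eprs and Arf1 (0.07 to 0.09, out of 1984). Cpa3 lay nearest to Ctla2b, Rpl8 and Myl6 (0.15 to 0.20, out of 165). For Tpsab1 these included Emilin2 and Hspa8, and they were for Tpsg1 Scamp4, Oga and Tmed5, and for Hdc Ssna1, Zwint and Rnf34. With 4 arrays and so many candidates this is a description only.

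Heparin is built as a long sugar chain on the protein serglycin and then modified by sulfotransferases. Of 34 further genes of heparin and heparan sulphate synthesis, 29 were tested, each by its brightest tested probe, and 3 rose, 6 fell and 20 did not pass. The median log2 ratio was -0.04, against 0.04 over the 16414 tested genes, of which 19.7% were called higher and 13.8% lower. The 3 that rose were Hs3st1 (0.29 ± 0.24, with replicate 4 at 0.64), a 3-O-sulfotransferase, Extl2 (0.29 ± 0.03), a glycosyltransferase, and Glce (0.28 ± 0.07), the epimerase that turns glucuronic into iduronic acid. Glce had further probes that did not pass (0.13 and 0.05). Hs3st1 lost its call without replicate 1, 2 or 3 (adjusted p from 0.0515 to 0.119) and with no filter on dim probes (0.0578).

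The largest falls in this list were those of B3gat3, Papss2, Hs6st3 and Slc35b2. B3gat3, which completes the linker between protein and chain, read -0.72 ± 0.36, but its probes disagreed, at -0.94 and 0.36 for the others, each past the threshold, and its call was lost without replicate 2 (adjusted p = 0.0539). Papss2, which makes the sulfate donor PAPS, read -0.59 ± 0.33 (limma, adjusted p = 0.0124), or -0.89 with the software's log ratio and -0.20 with median centring (adjusted p = 0.316). The probe of Hs6st3, a 6-O-sulfotransferase, was dim (mean log2 intensity 7.80). Hs6st3 read -0.50 ± 0.29, or -1.07 with the software's log ratio and -0.27 with median centring (adjusted p = 0.103). Both lost their calls without replicate 2 (adjusted p = 0.0735 and 0.0869) or 3 (0.0545 and 0.0538). Slc35b2, the transporter that brings PAPS into the Golgi, fell with both probes, by 0.22 and 0.30, but did not pass with the software's log ratio (-0.17) or without replicate 2, 3 or 4 (adjusted p from 0.0657 to 0.132), and read 0.83 with median centring.

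The remaining falls were those of Hs6st1 (-0.17) and Papss1 (-0.17), which read 1.06 and 0.62 with median centring and lost their calls when 1 array was left out (adjusted p up to 0.15 and 0.155). Hs6st1 also did not pass with the software's log ratio (adjusted p = 0.066). Ndst1, the enzyme of the same reaction as Ndst2 in most tissues, read -0.00 ± 0.08 at its brightest probe, and its other probes read 0.31 (higher), -0.45 (lower) and -0.07, so it has no single direction. Srgn, the gene of serglycin, read 0.08 ± 0.25 (adjusted p = 0.519), but -0.24 with the software's log ratio (adjusted p = 0.048). It read 0.20 without replicate 1 (adjusted p = 0.0308) and 1.58 with median centring (adjusted p = 0.00691), so it has no settled direction. The median of tested probes of its brightness, between 16 and 17, was 0.50 after loess.

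Histamine is taken into granules by a vesicular transporter and inactivated by methylation or oxidation. Of 16 further genes of this list 12 were tested, and 1 rose, 2 fell and 9 did not pass, with a median of -0.00. Over all tested genes 19.7% were called higher and 13.8% lower, so these counts set nothing apart about the list. Hrh1, the gene of the H1 receptor, rose by 0.28 ± 0.07 (limma, adjusted p = 0.00715). Aldh2, a mitochondrial aldehyde dehydrogenase, fell by 1.09 (SD 0.29, adjusted p = 0.00163), to 0.47 of the level in unstimulated cells. On the median-centred scale it stood at -0.10 (adjusted p = 0.744). Slc7a5, a transporter of large neutral amino acids such as histidine, fell by 0.43 (SD 0.08) and read 0.84 with median centring. Slc18a2, the vesicular transporter that loads histamine, read -0.00 ± 0.12 and -0.12 with its other probe, and neither passed. Hnmt, the methyltransferase that inactivates histamine, was well above background on 4 arrays in the IL-18 channel and on 0 in the unstimulated channel, where it has only a bound, so no fold is given.

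The last list holds further proteases of the tryptase locus, other metallocarboxypeptidases, and proteases and inhibitors that act on such enzymes. Of 29 genes 19 were tested, and 3 rose, 2 fell and 14 did not pass, with a median of 0.07. Here too the counts set nothing apart, beside 19.7% called higher and 13.8% lower over all tested genes. Serpinb1a, an inhibitor of granule serine proteases such as elastase, rose by 0.55 ± 0.22 (limma, adjusted p = 0.00576), or 0.30 with the software's log ratio. The median of tested probes of its brightness, between 16 and 17, was 0.50. Cpd, a carboxypeptidase of the secretory pathway, rose by 0.32 ± 0.10 at its brighter probe but fell by 0.25 at its dim one. Cpb1, known as a pancreatic carboxypeptidase, rose by 0.22 ± 0.06. The call of Cpd was lost without replicate 2 (adjusted p = 0.05), and that of Cpb1 without replicate 2 (0.0779) or 3 (0.0664).

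Ctse, the aspartic protease cathepsin E, which is known to take part in the processing of Cpa3 in mice, fell by 0.24 (SD 0.09, adjusted p = 0.0145), though it read 1.06 with median centring. Its call ended without replicate 2 (adjusted p = 0.0503) or 3 (0.0689). Cpb2, a carboxypeptidase of plasma, fell by 0.18 (SD 0.12, adjusted p = 0.0483) and lost this call with a background offset of 16 (0.0503), no filter on dim probes (0.0544), eBayes with trend (0.0521), and without replicate 2, 3 or 4 (0.0739 to 0.2). Ctsc, the peptidase that activates granule serine proteases, read 0.04 ± 0.14, Lxn, an inhibitor of carboxypeptidases of the A type, 0.09 ± 0.08, and Prss34, a tryptase-like protease of mast cells and basophils, 0.07 ± 0.13. None of these 3 passed.

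**Figure D5:**
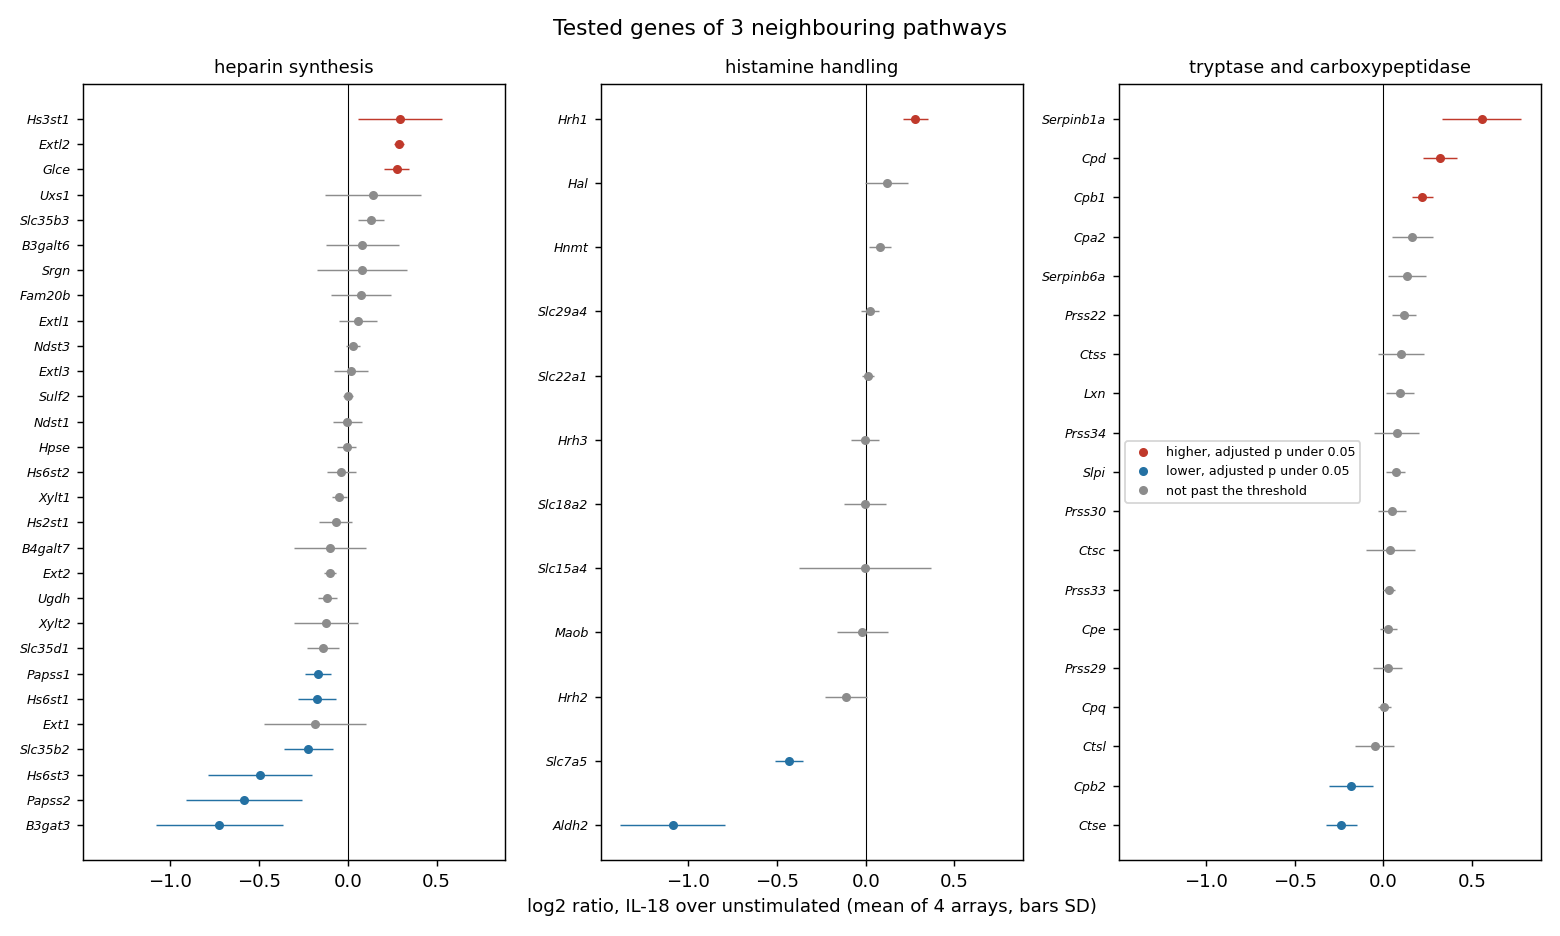
Mean log2 ratio of IL-18 over unstimulated cells with SD over 4 arrays (horizontal axis) for each tested gene of heparin synthesis (29 genes), histamine handling (12) and the tryptase and carboxypeptidase group (19), red where higher, blue where lower and grey where the threshold was not passed. Most points are grey and lie near 0, and Aldh2 (-1.09) and B3gat3 (-0.72) lie farthest from it.

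The arrays carried 43379 gene spots each, of which 57.9% to 62.7% were well above background in the IL-18 channel and 49.9% to 54.0% in the unstimulated channel, and none (0) were saturated. Replicate 1 stood apart: its median log2 ratio before normalization was -0.52, against 0.28 to 0.36 on the others, and its ratios correlated with theirs across probes, which are not independent, with r = 0.619 to 0.761, against 0.842 to 0.906 among the rest. Without it the members read -0.74 (Tpsb2), -0.39 (Ndst2) and 0.56 (Cpa3), all still past the threshold. All 7 mast cell markers checked, both markers of mucosal mast cells and all 3 of connective tissue mast cells (Mcpt4, Cma1 and Tpsb2 itself) were well above background in both channels on every array. Besides the members, Fcer1a (0.81), Mcpt1 (0.69), Cma1 (0.82) and Mcpt4 (0.26) were higher and Mitf (-0.36) lower, and Gata2 had probes of both directions (0.30 and -0.29). The 4 higher ones have mean log2 intensities of 16.29 to 17.02. Tested probes between 16 and 17 had a median of 0.50 after loess, and those between 17 and 18 of 0.61. The calls of Mcpt4, Mitf and the brighter Gata2 probe were lost when 1 array was left out (adjusted p up to 0.0851, 0.119 and 0.107). Mitf read 0.54 with median centring. After loess Cma1 and Mcpt4 thus had the opposite sign to Tpsb2, but Mcpt4 lay below the median of its brightness. With median centring Cma1, Mcpt4 and Tpsb2 all read above 0 (2.39, 1.75 and 0.47). With the software's log ratio Mcpt4 read -0.05. Of 39 markers of basophils, macrophages, granulocytes, lymphocytes, dendritic cells, fibroblasts and erythroid cells, 37 were on the array and 26 were tested. Of these Mcpt8 (0.41), Cd200r3 (0.24), Adgre1 (0.28) and Xcr1 (0.43) were higher, and Itgax had a lower (-0.21) and a higher (0.30) probe. The calls of Cd200r3, Adgre1 and Xcr1 were lost when 1 array was left out (adjusted p up to 0.0865, 0.0862 and 0.108). A further 7 were not well above background on any array, among them Elane, Epx, Prg2, Dcn, Vsig4 and Itga2. Other markers of the same cell types were detected. S100a9 (neutrophils), Siglecf (eosinophils) and Col1a2 (fibroblasts) were well above background in both channels on 4 arrays. Summed net signals, from which the dye and brightness trend is not removed, were for the basophil markers 44668 to 66623 units with IL-18 and 16018 to 17914 without. They were 2363 to 3316 and 1299 to 1533 for macrophage markers, 2807 to 3271 and 1599 to 1991 for dendritic cell markers, and 1199 to 1461 and 1423 to 1696 for T cell markers. The sums of B cell markers were 141 to 174 and 171 to 207 units, those of eosinophil markers 98.5 to 128 and 128 to 148, and those of mast cell markers 1526330 to 1723430 with IL-18 and 415757 to 522681 without. The part of other cells in the members' ratios was not tested.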

How the data were processed

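Intensity values (mean spot signal and median local background in Cy5 and Cy3) were taken from the authors' deposited Agilent Feature Extraction 9.1 files and were uncorrected for background and dye, per the file headers. The log10 ratios in the same deposited files, and in a deposited series table (largest difference 0.00496, column medians 0), had been background-subtracted and dye-normalized by linear and lowess steps, per the file headers, and served as alternatives after conversion to log2. Both run as Cy5 over Cy3.

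In limma 3.58.1 (R 4.3.3), background was corrected with normexp (offset 50) and ratios were normalized within each array by loess, without weight on control and outlier spots. Probes well above background in 1 channel on at least 3 arrays, with at least 3 values, were tested with lmFit and eBayes (intercept, two-sided, Benjamini-Hochberg). For gene lists, the brightest tested probe stood for its gene. Each ratio is within 1 pair, so the test is paired by construction. The number of arrays, 4, limits the precision.

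Of 43379 gene spots 24913 took their current symbol through an accession (RefSeq, GRCm38.p6) and 9984 through a symbol or older name. No genome build is given in the files. The members and gene lists were chosen with earlier results of these data known. Named list genes were up to 4 per direction with the largest ratios past the threshold, plus Srgn, Slc18a2, Hnmt, Ndst1, Ctsc, Lxn and Prss34; Hs6st1, Papss1 and the cell markers with a call were named after their values were seen. A few genes that these rules name are not reported here. Alternatives covered background, normalization, filter, test, slide and each array left out. In simulated arrays with 24071 probes and the real trend and spread, a log2 change of 0.25 was recovered in 16%, 0.5 in 60% and 0.75 in 94% of 50 probes each, and 1.48% of calls were false. Few probes were changed there, with noise independent between probes, whereas 34.1% were called in the real data. These shares therefore hold for the simulated setting only.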

Additional observations from a re-analysis of the deposited data

Results flagged for a closer look

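On 4 arrays, an array was singled out where its gap to the nearest other array exceeded, as a share of the whole range of a gene's log2 ratios, Dixon's 95% critical value. Chance does this in about 1 in 20 groups, and 2 of 28 genes checked met it, none of them a member. Hs3st1 read 0.64 in replicate 4, against 0.12 to 0.21 on the other arrays. Ctsc read -0.17 in replicate 1, against 0.09 to 0.13 on the others.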

How the results depend on the processing

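Every member has 1 probe, so no other probe could be used in its place. Of 14 alternatives with a test, 12 kept the direction and the call of Tpsb2, 12 those of Ndst2 and 10 those of Cpa3. Those of filter, test and slide leave the ratio itself unchanged, so only the call could change. The series table repeats the software's log ratio, so these alternatives are not independent of each other. Median centring gave 0.47 for Tpsb2, 0.71 for Ndst2, 0.77 for Hdc, 1.52 for Tpsab1 and 1.13 for Tpsg1, so that 4 members were called higher and 0 lower. It called 13970 of all probes higher and 179 lower, against 4357 and 3869 with loess, and 21, 6 and 13 genes of the heparin, histamine and protease lists, against 9, 3 and 5. List genes that reversed under it were Hs6st1 (1.06), Papss1 (0.62), Slc35b2 (0.83), Slc7a5 (0.84), Ctse (1.06), Cpb2 (0.21), Ndst1 (1.04) and Slc18a2 (1.25). Scale normalization after loess multiplied replicate 1 by 4.10 and the others by 0.56 to 0.69, and left 0 calls in all and among the members and lists (5876 probes at an unadjusted p under 0.05). It gave -1.10 for Tpsb2, -0.52 for Ndst2, 0.45 for Cpa3 and 0.31 for Hdc, and -0.19, 0.026 and -0.12 for Srgn, Slc18a2 and Ctsc. With the scanner software's and the series table's log ratio Cpa3 read 0.13, so that 0 members were higher, Tpsab1 -0.07 (-0.0663 and -0.0659), Srgn -0.24 and Ndst1 0.056, and 6 histamine and 8 protease genes were called.

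Leaving out 1 array at a time gave -0.76 to -0.70 for Tpsb2, -0.40 to -0.34 for Ndst2, 0.40 to 0.56 for Cpa3, -0.27 to 0.048 for Hdc, 0.04 to 0.19 for Tpsab1 and 0.08 to 0.12 for Tpsg1. The call of Cpa3 was lost without replicate 2, which left 0 to 1 members higher. Calls over all probes ranged from 1344 (without replicate 2) to 4575 higher and from 839 to 5038 lower (without replicate 1), and were 1668 and 1218 without replicate 3. Calls in the heparin list ranged from 2 (without replicate 2) to 10 and were 3 without replicate 3, and in the protease list from 1 (without replicate 2) to 7 and were 2 without replicate 3. Ndst1 ranged from -0.041 to 0.016, and Slc18a2 from -0.037 to 0.053. Without background correction Slc18a2 read 0.0098. Within slide 1 Tpsb2 read -0.70, Ndst2 -0.36 and Cpa3 0.40, and within slide 2 -0.77, -0.39 and 0.54. The causes of these changes were not tested.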
